A study of Mus musculus with 4 samples.

Results

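The 10 genes described here carry a Wnt signal from the cell surface to the nucleus and feed back on it: Lrp6, Znrf3, Rnf43, Axin1, Axin2, Apc, Ctnnb1, Tcf7l1, Tcf7l2 and Glul. They were taken by gene symbol from a pair of mRNA count tables, and 10 of 10 were listed among the 16211 genes of the tables. The cells were tumor-initiating hepatocytes (TICs) of C57BL/6 mice, named for their capacity to start tumors. The control group carried a control hairpin (shcont), and the group labelled H19 knockdown carried a hairpin against H19 (shH19), an imprinted long noncoding RNA. The sources used here give neither age, nor how many animals or cultures were used, nor the hairpin sequences or vector. Each group held 1 mRNA library, so no difference below has a replicate check and no p-value is given. Pairs of values give the control first.

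Without Wnt, a cytoplasmic destruction complex built on the scaffolds Axin and Apc marks beta-catenin, the product of Ctnnb1, for degradation. A Wnt ligand bound to a Frizzled receptor and its co-receptor Lrp5 or Lrp6 draws Axin to the membrane, beta-catenin accumulates, and in the nucleus it acts with the TCF and LEF transcription factors. Axin2, Znrf3 and Rnf43 are targets of this signal that dampen it, and in the liver the pathway marks hepatocytes around the central vein, where Glul is a classical target.

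Promoter stretches of Axin2, the feedback scaffold, and Glul, the liver target, are shown. Measured in SD, their ratios between the libraries lay farthest from the median of genes with similar read numbers. Tcf7l1, with under 20 reads, was not compared in this way. The choice was made on these values, and nothing is read from it. Each is the 250 bases before a RefSeq transcript start in GRCm38.p6, on the plus strand, at chr11:108920099-108920348 for Axin2 and chr1:153899679-153899928 for Glul. The Axin2 stretch lies inside the span of the gene, which begins at 108917828, so it precedes a start within that span. Capitals mark CG dinucleotides, 24 in the Axin2 stretch and 15 in the Glul stretch.
Axin2: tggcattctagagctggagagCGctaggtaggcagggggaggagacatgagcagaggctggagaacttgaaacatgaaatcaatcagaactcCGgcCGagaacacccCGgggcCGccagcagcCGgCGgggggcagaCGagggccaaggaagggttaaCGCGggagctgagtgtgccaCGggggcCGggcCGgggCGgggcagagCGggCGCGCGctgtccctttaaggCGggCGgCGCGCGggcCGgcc
Glul: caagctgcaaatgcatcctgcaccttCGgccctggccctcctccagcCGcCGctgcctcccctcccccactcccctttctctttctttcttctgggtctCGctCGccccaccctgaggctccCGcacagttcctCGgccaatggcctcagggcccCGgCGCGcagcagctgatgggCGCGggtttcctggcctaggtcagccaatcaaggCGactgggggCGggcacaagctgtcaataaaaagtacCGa
The RefSeq table held 9 promoter windows for 6 of the 10 genes, namely Axin2, Glul, Ctnnb1, Rnf43, Tcf7l1 and Tcf7l2. The letters of the TCF and LEF motif, CTTTGAT or CTTTGAA, which cannot both match at the same base, were searched on both strands and were in 0 of the 9 windows of 300 bases. They were in 8.65% of all 32851 windows and in 5.97% of the 13610 windows of genes listed in the tables. These letters were thus not in these windows, which says nothing of sites elsewhere. Median GC content was 70% in the 9 windows, 60.3% in windows of listed genes and 52.7% in all windows. With shares this low, 9 windows are too few to read anything from the 0.

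The counts, taken as raw reads, summed to 33578868 for the control and 34061172 for the library labelled shH19. H19 itself had 43 and 40 reads, a ratio of 0.931 with a 95% counting interval of 0.589 to 1.46, so the targeted gene did not bear out the label and every direction below refers to that label. All intervals cover counting error only. Hepatocyte markers were present in part: 11 of 12 were listed, and 6 had at least 100 reads in 1 library. Apob had 37279 and 30259 reads and Hnf4a 2373 and 2764, but Alb, albumin, had 129 and 88. The 5 under 100 reads were Ttr (78 and 51), Afp (75 and 44), Apoa1 (58 and 87), Fgb (37 and 29) and Serpina1a (33 and 18). Biliary markers were uneven: Spp1 had 72614 and 73248 reads, Krt19 29919 and 39984 and Krt7 6162 and 4194, but Sox9 122 and 109, Cftr 31 and 32 and Epcam 12 and 11. Of 8 lymphocyte markers 0 were listed, of 8 endothelial markers 2 (2.13 and 2.16 CPM together, where CPM is the count scaled to library size), of 10 stellate and fibroblast markers 3 (2.78 and 1.95) and of 9 macrophage markers 5 (103 and 78.1, mostly Cd14), with Adgre1, Clec4f, Marco and Itgam not listed. The 7 mitochondrially encoded protein genes with at least 100 reads had a median log2 ratio of 0.35. Whether any of these differences bears on the Wnt genes was not tested.

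Levels were compared between genes as CPM per kilobase of exon. Ctnnb1 and Glul stood far above the other 8 genes, and the feedback scaffold Axin2 and the factors Tcf7l1 and Tcf7l2 were at the bottom. Ctnnb1 was at 231 in the control library and 249 in that labelled shH19, and Glul at 147 and 176. Lrp6 followed at 13.7 and 13.7, Axin1 at 9.83 and 9.57 and Apc at 6.93 and 7.67. The ubiquitin ligases Rnf43 and Znrf3 were at 3.52 and 3.92 and at 1.66 and 2.01. Tcf7l2 was at 0.399 and 0.436, Axin2 at 0.193 and 0.349 and Tcf7l1 at 0.116 and 0.0800. The order of the 10 genes was identical in both libraries. Per kilobase of coding sequence it was the same in the control, while Axin1 and Apc changed places in the library labelled shH19, so these neighbors are not separated by these data. Ctnnb1 was 23.5-fold above Axin1 and 33.4-fold above Apc in the control, and 26.1-fold and 32.5-fold above them in the library labelled shH19.

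**Figure D1:**
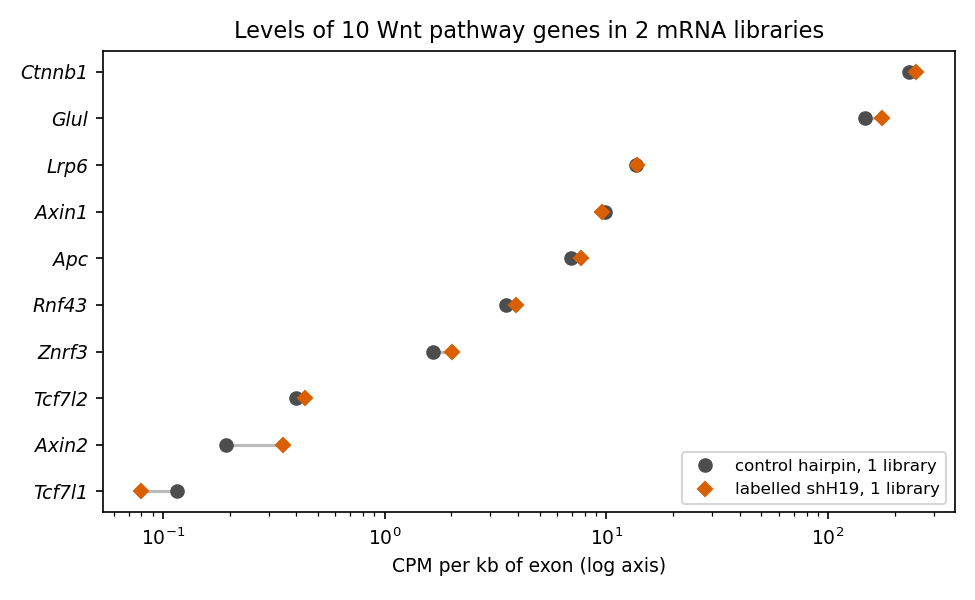
CPM per kilobase of exon (log axis) for each of the 10 genes, with a circle for the control library and a diamond for the library labelled shH19. Both libraries give the same order, from Ctnnb1 at 231 and 249 to Tcf7l1 at 0.116 and 0.0800, and the widest gaps between the symbols are those of Axin2 and Tcf7l1, the genes with the fewest reads.

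The comparison of the libraries asked which of these transcripts differ with the hairpin against H19. Differences were small. In bulk RNA fewer cells expressing a gene and less RNA per cell cannot be told apart. Of the 8 members with at least 100 reads in 1 library, 7 had a log2 ratio above 0, against 51.9% of the 11412 genes with that many reads, 1 lay below 0, against 48.1%, and 1 was at least 1.2-fold higher, against 10.3%. None of the 8 was at least 1.2-fold lower, against 9.89% of genes, and 0 were 1.5-fold different in either direction, against 1.31% higher and 1.39% lower. The median log2 ratio of the 8 was 0.14, beside 0.01 over all 11412 genes. These 8 reached 100 reads in both libraries; the remaining members, Axin2 and Tcf7l1, did so in neither and are given by their counts. In 5 of the 8 the counting interval lay wholly above 0, against 28% of genes, and in 0 wholly below, against 24.1%. So large a share of all genes shows that differences beyond counting error were common between these libraries.

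At the membrane, Lrp6, the co-receptor that is phosphorylated on Wnt binding, lies on chromosome 6 at 134446476 to 134566913 in GRCm38.p6. It had 4542 control reads and 4566 reads with the hairpin labelled shH19, a log2 ratio of 0.01 (interval -0.05 to 0.07). The difference was within counting error and its sign changed when scaled to the total count (-0.01), but with the median of chromosome 6 subtracted the log2 ratio was 0.11, above that interval. Its paralog Lrp5 had 3227 and 3234 reads, so Lrp6 made up 58.5% of the reads of the pair in each library (exact Clopper-Pearson intervals 57.4% to 59.6% in both).

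Znrf3 and Rnf43 encode transmembrane ubiquitin ligases that remove Frizzled receptors from the surface and are themselves held in check by R-spondin bound to Lgr receptors. Znrf3, on chromosome 11 at 5276329 to 5444847, had 442 and 537 reads, which is 1.21-fold higher in the library labelled shH19 (interval 1.07 to 1.38, log2 ratio 0.28). It was the only member with at least 100 reads to reach 1.2-fold, and it came just short of it when scaled to the total count (log2 ratio 0.26) or with the median of its chromosome subtracted (0.25). Rnf43, on the same chromosome at 87663087 to 87735539, had 780 and 870 reads (1.11-fold, 1.01 to 1.23, log2 ratio 0.16). Both lay on the higher side, and the interval of Rnf43 only just excluded equal levels. Znrf3 made up 36.2% (33.5% to 38.9%) and 38.2% (35.6% to 40.8%) of the reads of the pair, so within the pair the balance was indistinguishable between the libraries at this depth.

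In the destruction complex the constitutive scaffold was within counting error of equal counts and the feedback scaffold had the higher count with shH19. Axin1, on chromosome 17 at 26131217 to 26195811, had 1273 and 1240 reads, a log2 ratio of -0.04 (-0.15 to 0.07). Axin2, on chromosome 11 at 108917828 to 108950783, had 36 and 65 reads, which is 1.78-fold higher in the library labelled shH19 (1.18 to 2.79, log2 ratio 0.83). Among the 3525 genes with 20 to 99 reads in the higher library 41.6% lay above 0, 11.9% were at least 1.5-fold higher and 8.11% had an interval wholly above 0. The share of Axin2 in the reads of both Axin genes, which needs no scaling between libraries, was 2.75% (1.93% to 3.79%) in the control and 4.98% (3.86% to 6.30%) in the library labelled shH19. These counting intervals only just failed to overlap (3.79% against 3.86%), and they rest on 36 and 65 Axin2 reads. How often the shares of other gene pairs differ this much between the libraries was not counted. Axin1 nevertheless stood 50.8-fold above Axin2 per kilobase in the control and 27.4-fold above it in the other library.

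Apc, the large scaffold that presents beta-catenin to the complex, lies on chromosome 18 at 34220297 to 34322190. It had 3689 and 4088 reads, which is 1.11-fold higher in the library labelled shH19 (1.06 to 1.16, log2 ratio 0.15). The pseudogene Apc-ps1 was listed with 7 and 17 reads, at most 0.416% of the Apc count. Apc2, a paralog, had 144 and 141 reads, and Apc held 96.2% and 96.7% of the reads of both.

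Ctnnb1, on chromosome 9 at 120933400 to 120960507, encodes beta-catenin, the transducer that the complex degrades and that also joins cadherins to the cytoskeleton. With 39864 and 43043 reads it ranked at place 61 of all listed genes in the control library and at place 53 in that labelled shH19. The ratio was 1.08 (1.06 to 1.09, log2 ratio 0.11). With this many reads the counting interval was narrow and lay wholly above 0, while the difference was smaller than the spread of the 512 genes with 10000 to 100000 reads, whose log2 ratios had an SD of 0.18. Transcript counts do not show whether the protein was stabilized.

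Of the nuclear factors, Tcf7l1, known mainly as a repressor, and Tcf7l2, a partner of beta-catenin in the liver, were both sparse. Tcf7l2, on chromosome 19 at 55741797 to 55933659, had 118 and 129 reads, a log2 ratio of 0.13 (-0.24 to 0.50). Tcf7l1, on chromosome 6 at 72626371 to 72789045, had 13 and 9 reads, a log2 ratio of -0.49 (-1.94 to 0.81). Neither difference was detectable at this depth. Tcf7l2 held 67.0% (59.6% to 73.9%) and 62.3% (55.3% to 68.9%) of the reads of Tcf7, Tcf7l1 and Tcf7l2 together, and Lef1, the remaining member of that family, was not listed.

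Glul, on chromosome 1 at 153899929 to 153909723, encodes glutamine synthetase, which in the liver is found in the hepatocytes next to the central vein. It had 16533 and 19801 reads, which is 1.196-fold higher in the library labelled shH19 (1.17 to 1.22) and just short of the 1.2-fold limit. Its log2 ratio of 0.26 lay 1.39 SD above the median of genes with similar read numbers. Measured in the same way Axin2 lay 1.52 SD above the median of its class, Znrf3 0.986, Apc 0.713 and Ctnnb1 0.576. This spread among genes is one that 1 library per group cannot divide between the hairpin and the culture.

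**Figure D2:**
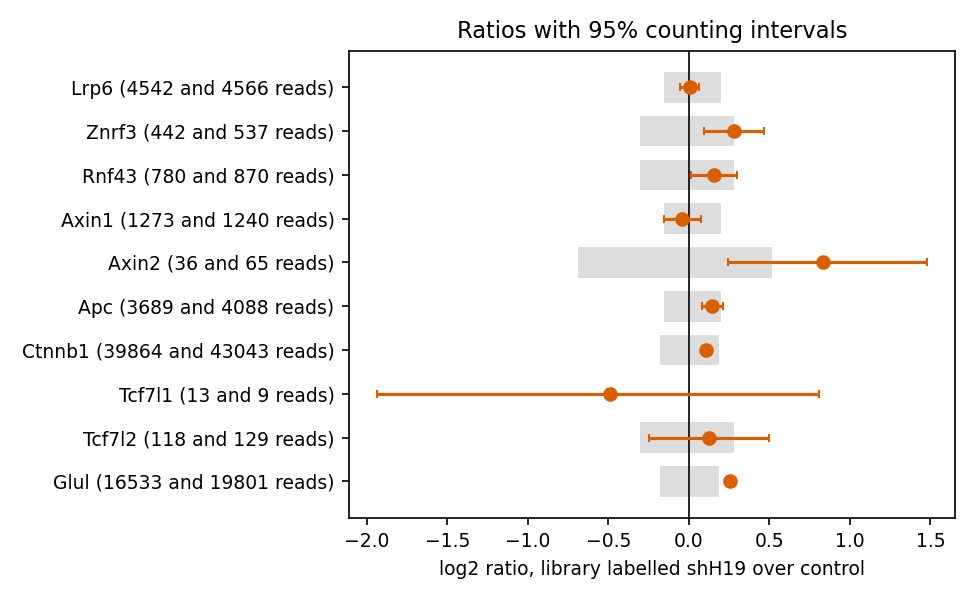
Log2 ratio of the library labelled shH19 over control for the 10 genes, ordered by role, with bars for the 95% counting interval and the reads of both libraries beside each name. Grey bands span 1 SD on each side of the median log2 ratio of all genes in the same class of read number. Tcf7l1, under 20 reads, has no band. Only Axin2 (0.83) and Glul (0.26) lie outside their band. The share of all genes outside such a band was not counted, so nothing is read from their place.

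**Figure D3:**
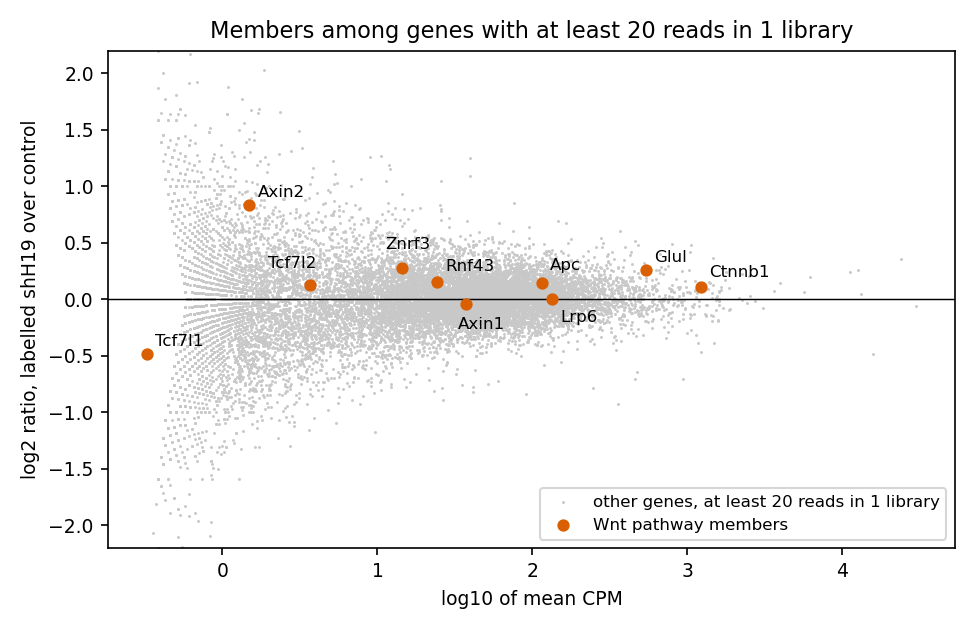
Log2 ratio against the log10 of mean CPM for all genes with at least 20 reads in 1 library (grey, 1 library per group; 11 genes lie outside the drawn range) and for the 10 members (orange). The grey cloud narrows as reads increase, and Axin2, at 0.83, is the member farthest from 0.

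Some members have close paralogs, so the longest identical run between their coding sequences was read from the longest coding sequence of each gene in GENCODE vM1, to show how far a read could be shared. All letters are in lower case because no part of a run is set apart.
Axin1 and Axin2: catgtttgaccaggcacagac
Rnf43 and Znrf3: tccaccttccgaagctccct
Tcf7l1 and Tcf7l2: aactatgggaagaagaagaagag
The runs were 21, 20 and 23 bases long, at bases 555 to 575 of the Axin1, 1483 to 1502 of the Rnf43 and 1285 to 1307 of the Tcf7l1 coding sequence. A read longer than the run and within the coding sequence therefore holds at least 1 base that tells the pair apart.

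The rest of the pathway was read from 11 lists of 154 genes in all, of which 119 were listed and 99 had at least 100 reads in 1 library. Glul is in none of these 11 lists. Without the members these were 92 genes, of which 58 (63.0%) lay above 0 and 34 below, with 12 (13.0%) higher and 7 (7.61%) lower by at least 1.2-fold. Over all genes the shares were 51.9%, 10.3% and 9.89%. Of the 88 that had 100 reads in both libraries 57 lay above 0, 11 were higher and 5 lower by that limit. The median log2 ratio of the 92 was 0.06, beside 0.01 over all genes. The lists were chosen with earlier results of these data known, and nothing particular to them is read from these counts.

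Wnt ligands were led by Wnt10a, with 3695 and 4152 reads (1.12-fold), and Wnt4, with 1120 and 1163 (1.04-fold). Of 7 ligands with at least 100 reads 5 lay above 0, against 51.9% of all genes, and nothing is read from this count. Wnt6 had the highest ratio of the 7, at 173 and 288 reads (1.66-fold, 1.37 to 2.02). Wls, the carrier that brings Wnt proteins to the surface, had 10144 and 9454 reads (log2 ratio -0.10), while Porcn, which attaches their lipid, had 410 and 410.

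Of 11 Frizzled and co-receptor genes with at least 100 reads, Lrp6 included, 9 were above 0, with a list median of 0.24. By the 1.2-fold limit 5 were higher in the library labelled shH19 and 1 lower, and Fzd1 passed it only narrowly (1.2015-fold). Over all genes 51.9% lay above 0 and 10.3% were higher by that limit. With library totals as the scale, 7 of these 11 receptor genes stayed above 0. Nothing particular to this list is read from its counts. Fzd7 had 129 and 220 reads (log2 ratio 0.76), Fzd8 416 and 608 (0.54), Fzd2 836 and 1086 (0.38) and Ryk 2662 and 3255 (0.29). Ror1, a receptor of the branch without beta-catenin, had 221 and 171 (-0.37, or -0.19 with the median of its chromosome, 4, subtracted). Among R-spondin receptors Lgr6 had 334 and 638 reads, 1.91-fold higher (1.67 to 2.19), and the more abundant Lgr4 had 3212 and 3531 (1.10-fold), while Lgr5 had 28 and 35. Rspo3, an R-spondin, had 86 and 116 reads (0.43) and so reached 100 only in the library where it was higher. The 4 genes of this list with 100 reads in both libraries, Lgr4, Lgr6, Znrf3 and Rnf43, were all above 0, and the list median was 0.28 with Rspo3 and 0.22 without it. Of 15 antagonists at the cell surface or secreted, 11 were not listed, including Dkk1, Wif1 and Notum, and Kremen1 alone had at least 100 reads (919 and 976).

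Downstream of the receptors the Dishevelled list had a median of 0.08, and of its 9 genes with at least 100 reads 6 were above 0 and 3 below. The list of beta-catenin and its adhesion partners had a median of 0.11, with 4 of 6 genes above 0. Cxxc4 had the highest ratio of the 9 Dishevelled list genes, at 214 and 255 reads (log2 ratio 0.25). The 1 gene of that list at least 1.2-fold lower was Dvl1. Dvl1, a Dishevelled adaptor, had 2775 and 2261 reads (log2 ratio -0.30), and it lies on chromosome 4, whose 669 genes had a median of -0.18. With that median subtracted Dvl1 was at -0.12. Of 15 destruction complex genes with at least 100 reads 9 were above 0 and 6 below, 0 reached 1.2-fold in either direction and the median was 0.04. Gsk3b, the kinase that phosphorylates beta-catenin, had 3640 and 3961 reads (0.12), and Tnks2, a tankyrase that marks Axin for degradation, had 15623 and 14781 (-0.08). Among partners of beta-catenin in adhesion Ctnna1 (20615 and 22835 reads, 0.15) and Cdh2, N-cadherin (13454 and 14568, 0.11), were above 0, while Cdh1, E-cadherin (6174 and 5384, -0.20), and Jup, plakoglobin (4136 and 3774, -0.13), were below.

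Nuclear co-factors had a median of 0.06 over 18 genes. Of these 13 lay above 0, against 51.9% of all genes, and 1 was at least 1.2-fold higher, against 10.3%. That gene was Bcl9, which links beta-catenin to Pygo proteins, at 337 and 431 reads (log2 ratio 0.35). Pygo2 had 2000 and 2324 reads (0.21) and the acetyltransferase Ep300 1574 and 1831 (0.22). The deacetylase Hdac1 had 1280 and 1101 (-0.22, or -0.04 with the median of its chromosome, 4, subtracted). In the planar cell polarity list 8 of 13 genes were above 0, against 51.9% of all genes. Celsr1 was at 0.54 (159 and 232 reads) and Daam2 at -0.65 (229 and 146). Nothing particular to either list is read from these counts.

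Target genes, in a list that leaves out Glul, were divided. Of 14 with at least 100 reads 6 were above 0 and 8 below, 2 were higher and 4 lower by at least 1.2-fold, and the median was -0.04. The shares over all genes were 51.9% above 0, 48.1% below, 10.3% higher and 9.89% lower by that limit. Nothing particular to the target list is read from its counts. Sp8 had 614 and 1096 reads (log2 ratio 0.83, or 0.56 with the median of its chromosome, 12, subtracted), and the cyclin Ccnd1, at 35826 and 40211 reads, had 0.17. On the other side stood Vegfa (3315 and 2527 reads, -0.39), Lect2 (103 and 63, -0.70) and Tnfrsf19 (110 and 71, -0.63). The last pair reached 100 reads only in the control, where they were higher. Among the 12 targets with 100 reads in both libraries 6 were above 0 and 6 below, 2 higher and 2 lower by at least 1.2-fold, with a median of 0.003. Of 29 targets 9 were not listed, among them Nkd1, Notum, Sp5, Lef1 and Ascl2. Of 5 targets with 20 to 99 reads, Axin2, Lgr5, Tcf7, Apcdd1 and Tbx3, 5 lay above 0. At least 1.5-fold higher were 3, Axin2, Tcf7 and Apcdd1. Among the 3525 genes with 20 to 99 reads in the higher library 41.6% lay above 0 and 11.9% were at least 1.5-fold higher. The pathway lists without the members held 16 genes of this class, 4 of these targets included. Of those 16, 12 lay above 0 and 4 below, 6 were at least 1.5-fold higher and 0 that much lower. Nothing is read from these counts. Apcdd1, an inhibitor chosen after its values were seen, had 7 and 35 reads, so it reached 20 only in the library labelled shH19, and Tcf7, chosen likewise, 45 and 69.

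Glul had the most reads of the genes of the pericentral zone. Of 15 such genes 10 were listed and 6 had at least 100 reads, while the cytochromes Cyp2e1 and Cyp1a2 and the ammonium transporter Rhbg were not listed. Beside Glul, Ahr was higher (2559 and 3507 reads, log2 ratio 0.45, or 0.18 with the median of chromosome 12 subtracted) and Cyp27a1 lower (1426 and 1241, -0.20), with Oat at 4439 and 4657 (0.07). Of 12 periportal genes 5 were listed, among them Gldc at 12381 and 16287 reads (0.39) and Ass1 at 6326 and 5487 (-0.21), while Cps1 and Arg1 were not listed.

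**Figure D4:**
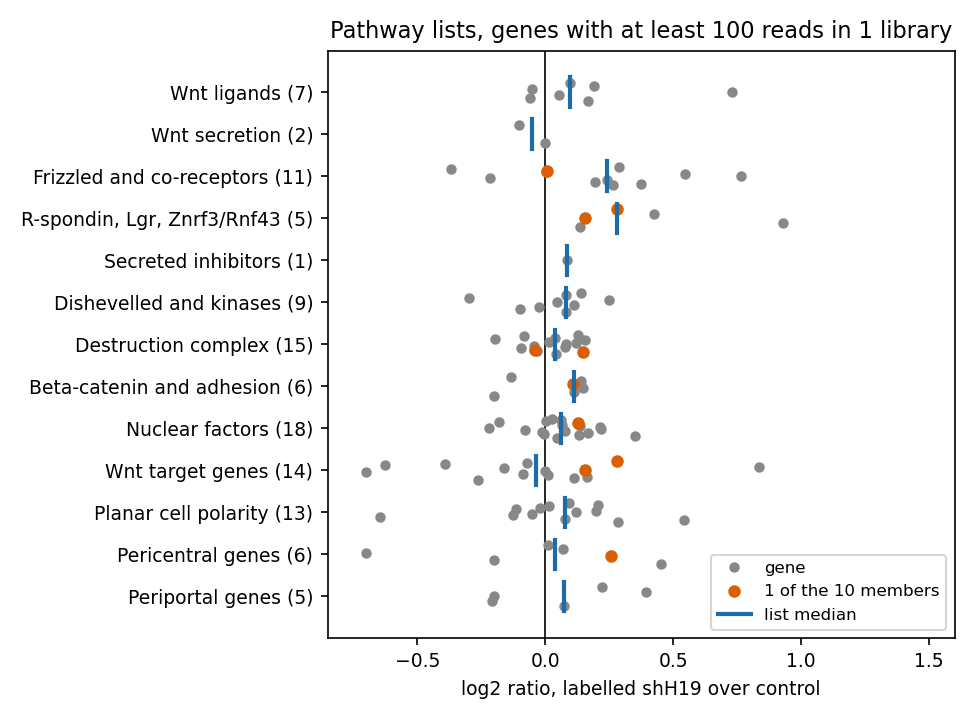
Log2 ratio of the library labelled shH19 over control for each gene with at least 100 reads in 1 library (grey, members orange), by list, with the number of genes in brackets and a blue bar at the list median. The median was 0.24 for the Frizzled and co-receptor list and 0.28 for the list of R-spondin, Lgr, Znrf3 and Rnf43. Target genes spread from -0.70 to 0.83 around a median of -0.04. Nothing particular to the lists is read from these medians.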

How the data were processed

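The deposited mRNA tables hold counts per gene symbol, which were assumed to be raw read counts. The library totals and all counting intervals rest on that assumption. Trimmed reads had been aligned to GRCm38 by STAR 2.5.2b, per the labels' design text, and Trimmomatic 0.36 is named in the submitters' processing notes. Neither the counting program nor its annotation and strand setting is given in the sources used here, so a gene and an overlapping or antisense neighbor may share reads. No listed gene had fewer than 21 reads summed over both libraries, and why a gene was not listed was not tested.

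Library sizes were made comparable by the TMM method of edgeR 4.0.16 (R 4.3.3). The log2 ratio was taken after adding 1 count to each scaled count, with an exact conditional binomial 95% interval computed with scipy 1.17.1 on Python 3.11.15. PCR copies of a molecule count as separate reads. No model was fitted, since each group had 1 library. Counts of genes used those with at least 100 reads in 1 library and limits of 1.2-fold and 1.5-fold. Genes were placed with the RefSeq table of GRCm38.p6, which matched 90.0% of symbols and 10 of 10 members. Exon and coding lengths came from GENCODE vM1 on NCBIM37, matched by symbol, with no coordinate taken from it.

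The members and lists were chosen with earlier results of these data known. Beside the members, the text names from each list up to 4 genes with the largest absolute log2 ratio and up to 2 with the most reads, among genes with at least 100 reads, and defining genes that were not listed. Further named genes (Fzd1, Lgr5, Tcf7, Tbx3, Apcdd1, Apc2, Apc-ps1 and the cell type markers under 100 reads) were chosen after their values were seen. The alternatives were DESeq2 1.42.0 size factors, the plain total count, TMM after leaving out the 10 genes with most reads, 0.5 or 5 counts added, subtracting chromosome medians, other minimums and coding length.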

Additional observations from a re-analysis of the deposited data

How the results depend on the processing

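Of 60 log2 ratios of the 10 members under 6 alternatives of scaling, added counts and chromosome medians, 58 stayed inside their counting interval. The others came from subtracting chromosome medians, which put Lrp6 at 0.11 against 0.01 and Ctnnb1 at 0.089 against 0.11. Lrp6 was at -0.01 when scaled to the total count, which gave 6 of 8 members above 0. The count of members at least 1.2-fold higher, 1 here, was 0 when scaled to the total count, with chromosome medians subtracted and at a 1000-read minimum, and it was 2 at 20 reads and with no minimum, where Axin2 enters. Without a minimum 1 member, Tcf7l1, was at least 1.2-fold lower. With 1000 reads 4 of 5 members were above 0. Pathway genes above 0 numbered 64 of 99, and 39 of 57 at 1000 reads. Those at least 1.2-fold higher numbered 13, against 26 at 20 reads, 26 without a minimum and 4 at 1000 reads. Those at least 1.2-fold lower numbered 7, against 11 without a minimum and 2 at 1000 reads. Other minimums admit other genes; elsewhere the cause was not tested. A minimum of 100 reads in both libraries, chosen after seeing the data, kept these counts within 1.5 times. Of 150 values for single lists and level ranks under alternatives, 135 were unchanged or within 1.5 times and 15 moved, with another minimum or with coding length. No paired analysis was possible because each group had 1 library per assay, and no replicate could be left out. Depth limits Axin2 and Tcf7l1 most.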
